A study of Mus musculus with 48 samples.

Results

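CD8+ T cells that had infiltrated B16F10 tumors (TILs) were compared by RNA-seq with CD8+ T cells of the tumor-draining inguinal lymph node (TDLN) of WT mice. The comparison holds 8 of the 48 libraries in the series, 4 from TILs and 4 from TDLNs, taken by their labelled genotype, sorted population and tissue. B16F10, a mouse melanoma cell line, was grown under the skin of the flank in C57BL/6J mice that were 6 to 10 weeks old in all experiments of the study. WT mice were littermates of the Yap-cKO mice, and whether they carried loxP-flanked alleles or Cre is not given in the sources used here. Yap-cKO mice carried Yap-loxP/loxP, LSL-EYFP and CD4-Cre. The Cd4 promoter that drives this Cre is active in thymocytes before the CD4 and CD8 lineages part, so CD8+ T cells delete Yap as well, while tumor cells, stroma and myeloid cells keep it. Live CD8+ T cells, CD4+ T cells and CD45+ cells negative for both coreceptors were sorted after digestion of the tumors, and Yap-cKO CD8, WT CD4, WT CD45 and Yap-cKO CD45 libraries serve here only as references. The node T cells came from TDLNs that corresponded to the tumors. Nothing in the sources ties the replicate number of a library to a mouse, so the p-values measure the spread between libraries.

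A CD8+ T cell that meets antigen in a lymph node leaves the naive program, which is kept by the transcription factors Tcf7 and Lef1 and by the homing receptor Ccr7, divides, and gains granzymes, cytokines and tissue homing receptors. In tumors, where antigen persists, such cells also carry inhibitory receptors such as PD-1 (Pdcd1) and Tim-3 (Havcr2), together with the transcription factor Tox, a state known as exhaustion. Sorted TILs can bring RNA of the tissue they were taken from, and B16F10 cells are pigmented cells that express the melanin synthesis enzymes.

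The 8 libraries held 12656302 to 20841666 gene counts, so that 3 counts in a library, taken as the lowest level told apart from 0, equalled 0.144 to 0.237 CPM, the counts of a gene scaled to the same library total. CPM below are scaled by TMM, which assumes that most genes do not differ. Tissue was the main axis of variation, with 76.4% of the variance on the first principal component, and TDLN replicate 4 stood apart from the other TDLN libraries on the second, which held 9.19%. TIL replicate 2 carried the most stromal RNA. Replicate 4 of both tissues had little RNA of the Y-linked gene Ddx3y (0 CPM in the TIL and 0.117 CPM in the TDLN library, against 20.04 to 36.3 CPM in the other TIL and 20.1 to 22.8 CPM in the other TDLN libraries), so 1 library in each group nearly lacked it. Of the 4 tested Y-linked genes 0 were called, and of 4 CD4 T cell genes Zbtb7b was called higher and Cd4 lower. The Cd4 call (log2 fold change −1.59) was lost without TDLN replicate 1 or 3, without TIL replicate 1, 2 or 4, under total-count scaling, and without either pair of libraries left out below, with edgeR adjusted p from 0.0859 to 0.117.

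The labels were checked on Cd8a, Gzmb and Pdcd1, markers that were named with the comparison. Cd8a (ENSMUSG00000053977.13, chromosome 6, 71373427 to 71379173 on GRCm38), which encodes the alpha chain of the CD8 coreceptor, was at 269.6, 227, 661 and 572 CPM in TIL replicates 1 to 4 and at 761, 1297, 1208 and 822 CPM in TDLN replicates 1 to 4. Every TDLN library was above every TIL library (log2 fold change −1.24, SE 0.39, edgeR adjusted p = 0.0234). The call was lost without TDLN replicate 2, TIL replicate 1 or TIL replicate 2 (edgeR adjusted p = 0.067, 0.0661 and 0.0526) and under total-count scaling (0.0618). Cd4 was at 0.598, 0.415, 1.57 and 0.299 CPM in TILs and 2.29, 1.44, 3.46 and 1.57 CPM in TDLN cells, against 333 ± 159 CPM in WT CD4 TILs (SD, n = 4, scaled over all 48 libraries), while Cd8a was abundant in all 8 libraries. Gzmb (ENSMUSG00000015437.5, chromosome 14, 56258838 to 56262260), the granzyme that cytotoxic cells deliver into their targets, was at 61.0, 118, 248 and 229 CPM in TILs and 3.62, 5.30, 4.38 and 4.14 CPM in TDLN cells (log2 fold change 5.23, SE 0.47, edgeR adjusted p = 1.1e-05). Pdcd1 (ENSMUSG00000026285.7, chromosome 1, 94038305 to 94052553), which encodes PD-1, was at 316, 119, 638 and 321 CPM in TILs and 37.2, 25.1, 47.2 and 17.6 CPM in TDLN cells (log2 fold change 3.46, SE 0.50, edgeR adjusted p = 0.000238). For both genes the lowest TIL library lay above the highest TDLN library.

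Across 13894 tested genes, 3121 (22.5%) were called higher in TILs and 2114 (15.2%) lower, and in 5746 (41.4%) the TIL and TDLN libraries did not overlap. For a call, the log2 fold change had to exceed 1 in size and the adjusted p had to lie under 0.05, which 37.7% of the genes met. Listed genes called higher included those of melanocytes, endothelium, pericytes, fibroblasts and macrophages, beside granzymes, inhibitory receptors, inflammatory chemokines and mitotic genes. Called lower were 20 of 23 naive and memory, 12 of 15 T lineage and 11 of 21 cytokine receptor genes. Without replicate 4 of both tissues the counts were 3437 and 2242, and without TIL replicate 2 and TDLN replicate 4 they were 3424 and 2143. Of the genes called higher, 498 had at most 3 counts in every TDLN library. For these the fold is given as a lower bound, the mean TIL level over the mean level of 3 counts in a TDLN library.

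RNA of melanocytes was the largest part of the marker RNA from other cells in the TIL libraries. All 16 melanocyte genes tested were called higher, and their summed level was 16953, 12203, 4485 and 13262 CPM in TIL replicates 1 to 4 against 16.7 to 22.1 CPM in TDLN libraries. Tyrp1 and Dct, which with Tyr are the enzymes of melanin synthesis, and Pmel, the scaffold protein of the melanosome, made up the most of the sum. Tyrp1 was at 4948, 3399, 1312 and 3978 CPM in TILs and at 0.318, 0, 0.0769 and 0.117 CPM in TDLN cells, at or near the level of 3 counts. Dct was at 4686, 3247, 1356 and 3350 CPM in TILs and 4.70, 4.17, 6.76 and 4.78 CPM in TDLN cells (log2 fold change 9.27, SE 0.55, edgeR adjusted p = 2.07e-06). Mitf, the transcription factor that drives the pigment genes, was at 139.7, 111, 37.6 and 64.2 CPM in TILs and 0.445, 0.642, 1.08 and 0.525 CPM in TDLN cells (log2 fold change 7.04, SE 0.53, edgeR adjusted p = 4.21e-06). TIL replicate 3 had the lowest value of the 4 TIL libraries for all 16 genes, and replicate 1 the highest for 14. Slc45a2, a melanosome transporter, had 0 counts in every TDLN library and was at least 3524-fold higher in TILs.

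Promoters of these genes are shown because Mitf binds the M-box, a sequence (TCATGTG or its reverse complement CACATGA) that contains CATGTG, a form of the E-box CANNTG. RefSeq promoters, 250 bases before each start site on GRCm38.p6, were found for 9 of the 16 genes, and 6 of these held the M-box on either strand, against 3.25% of 32841 promoters. With under 80% of the genes covered, the shares were not compared. Windows of 30 bases follow, 5′ to 3′ on the strand of the gene, with the M-box in capitals.
Tyrp1, chr4:80834155-80834184, plus strand: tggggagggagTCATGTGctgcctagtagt
Tyr, chr7:87493516-87493545, minus strand: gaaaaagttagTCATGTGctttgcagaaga
Dct, chr14:118052379-118052408, minus strand: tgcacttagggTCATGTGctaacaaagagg
Mc1r, chr8:123407019-123407048, plus strand: gcacatgcccaTCATGTGgccaccctcagg
Trpm1, chr7:64153682-64153711, plus strand: ccaaatcctcaTCATGTGcccaccccaaac
Slc24a5, chr2:125068097-125068126, plus strand: ggaggaaggagactgctCACATGAttcagc

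Stromal genes followed a different order of libraries. Of 16 endothelial genes, 15 were called higher, and the list summed to 682, 3294, 787 and 247 CPM in TIL replicates 1 to 4 against 119.6 to 153 CPM in TDLN libraries. Kdr, the main VEGF receptor of vessels, was at 49.6, 494, 71.6 and 12.9 CPM in TILs and 0.127, 0, 0.231 and 0.292 CPM in TDLN cells (log2 fold change 9.90, SE 1.32, edgeR adjusted p = 0.000143). Pecam1, which T cells also express, was not called (log2 fold change 0.65, SE 0.52, edgeR adjusted p = 0.343). All 11 pericyte genes were called higher, with sums of 423, 1178, 324 and 199.7 CPM in TILs and 11.9 to 22.1 CPM in TDLN cells. All 8 fibroblast genes that passed the count filter, of 13 listed, were called higher, and their list summed to 140.5, 969, 109.8 and 46.2 CPM in TILs and 1.38 to 2.22 CPM in TDLN cells. Of the 13 listed, 6 had at most 3 counts in every TDLN library and could pass the filter only through the TIL libraries. The count of fibroblast calls was thus largely set by the filter. Col3a1, a collagen chain, was at 32.9, 333, 35.0 and 8.96 CPM in TILs. Dcn and Lum, which define many fibroblasts, did not pass the filter and reached at most 1.495 CPM, and the genes that passed were 6 collagen chains, Postn and Mmp2. TIL replicate 2 held the highest value for 15 of the 16 endothelial, 10 of the 11 pericyte and 8 of the 8 fibroblast genes. Without TIL replicate 2 and TDLN replicate 4, 14 endothelial, 10 pericyte and 8 fibroblast genes were called higher. Of 8 keratinocyte genes only Krt10 passed the filter, and Krt5 had 0 counts in all 8 libraries.

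All 17 macrophage and monocyte genes were called higher, with sums of 1631, 867, 1189 and 1114 CPM in TILs and 57.3, 30.5, 82.2 and 31.8 CPM in TDLN cells. C1qb, a complement chain of tissue macrophages, was at 60.0, 30.6, 56.6 and 31.5 CPM in TILs and 1.65, 0.481, 1.46 and 0.350 CPM in TDLN cells (log2 fold change 5.51, SE 0.56, edgeR adjusted p = 2.28e-05). Apoe, a lipid carrier, was at 899, 514, 367 and 660.2 CPM in TILs and 23.1, 12.1, 33.4 and 9.16 CPM in TDLN cells (log2 fold change 4.97, SE 0.49, edgeR adjusted p = 2.02e-05). The summed macrophage level in WT CD8 TILs was 3.09% of that in WT CD45 TILs, where these cells were sorted, whereas the melanocyte level was 651% of that in WT CD45 TILs. Hemoglobin genes, which mark red cells, were also higher in TILs. The erythroid list summed to 745, 266, 1025 and 1723 CPM in TILs and 0.267 to 0.922 CPM in TDLN cells, and all 5 tested genes had their highest value in TIL replicate 4. Of 10 listed neutrophil genes 8 had at most 3 counts in every TDLN library and could pass the count filter only through the TIL libraries. Of the 5 that passed, 4 were called higher, a count largely set by the filter. S100a8 and S100a9, which encode the subunits of calprotectin, were at least 91.6-fold and at least 85.1-fold higher. Of 8 tested dendritic cell genes 5 and of 4 tested NK cell genes 3 were called higher, and of 7 MHC class II genes H2-DMb1 was higher (1.60) and H2-DMa lower (−1.37, log2 fold changes). Of 9 B cell genes 8 were called lower, with list sums of 25.5 to 34.6 CPM in TILs and 86.0 to 134 CPM in TDLN cells.

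**Figure D1:**
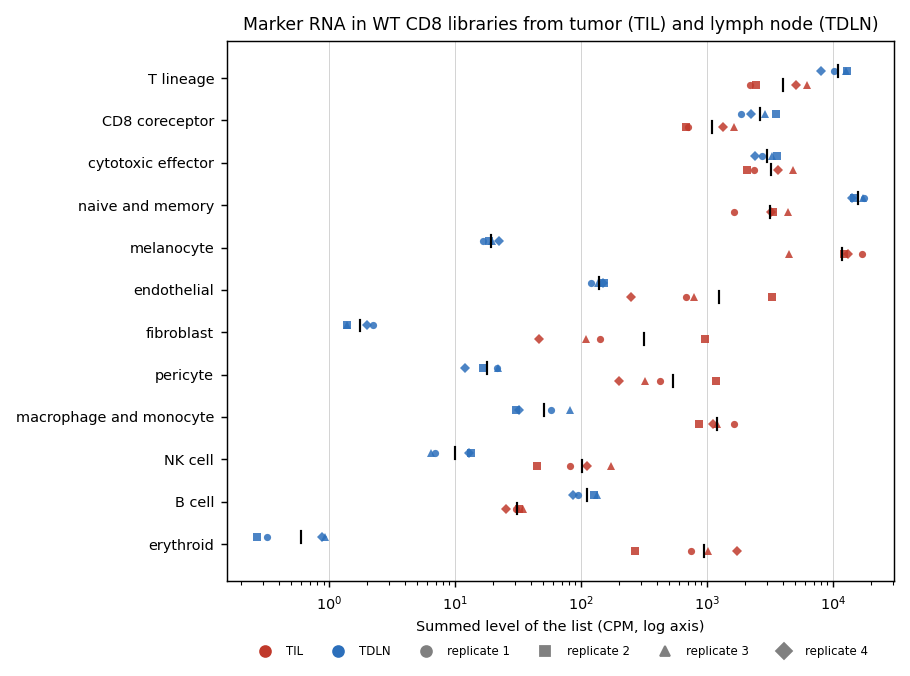
Summed level of 12 marker lists (CPM, log axis) in WT CD8 libraries, red for TIL and blue for TDLN, with a marker shape for each replicate and a black bar at the mean of 4 libraries. Melanocyte, stromal, macrophage and erythroid sums lie higher in all TIL than in all TDLN libraries, and T lineage, naive and B cell sums lie lower.

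The genes of the T lineage took a smaller share of the counts in TILs. The 15 T lineage genes summed to 2205, 2429, 6229 and 5041 CPM in TILs and 10138, 12884, 12638 and 8001 CPM in TDLN cells, and 12 were called lower. Lck, the kinase that starts T cell receptor signaling, was at 317, 434, 1047 and 906 CPM in TILs and 1644, 2772, 2590 and 1356 CPM in TDLN cells (log2 fold change −1.63, SE 0.44, edgeR adjusted p = 0.0104). Cd3d and Cd3g, chains of the receptor complex, missed the threshold at −0.82 and −0.73 (log2 fold changes, edgeR adjusted p = 0.0884 and 0.108). In bulk RNA, fewer T cells in a sort and less T cell RNA per cell cannot be told apart. The lists are therefore also given with the libraries scaled on the 15 T lineage genes. This moved the median log2 fold change of all tested genes from −0.02 to 1.64. The counts became 8363 higher and 107 lower of 13894 genes, beside which the counts of list members on this scale are to be read. Of the calls 98.7% were then higher, against 59.6% under TMM. Under total-count scaling 74.5% were higher, with 3624 higher and 1244 lower and a median of 0.25. Values on the T lineage scale read as change per T lineage RNA, and for lists with RNA of other cells they are not changes within T cells. On it all 16 melanocyte, 16 endothelial, 8 fibroblast, 11 pericyte, 17 macrophage, 8 dendritic cell, 5 neutrophil and 5 erythroid genes tested were called higher, as were 3 of 4 NK cell and 5 of 7 MHC class II genes, and 0 were lower. Of the 9 B cell genes 0 were lower there and 1, Ebf1, was higher, with a list median of −0.31, and of the 4 Y-linked genes 0 were called. The T lineage scale turned Cd8a to 0.22 (edgeR adjusted p = 0.556) and Cd8b1 to 0.24.

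**Figure D2:**
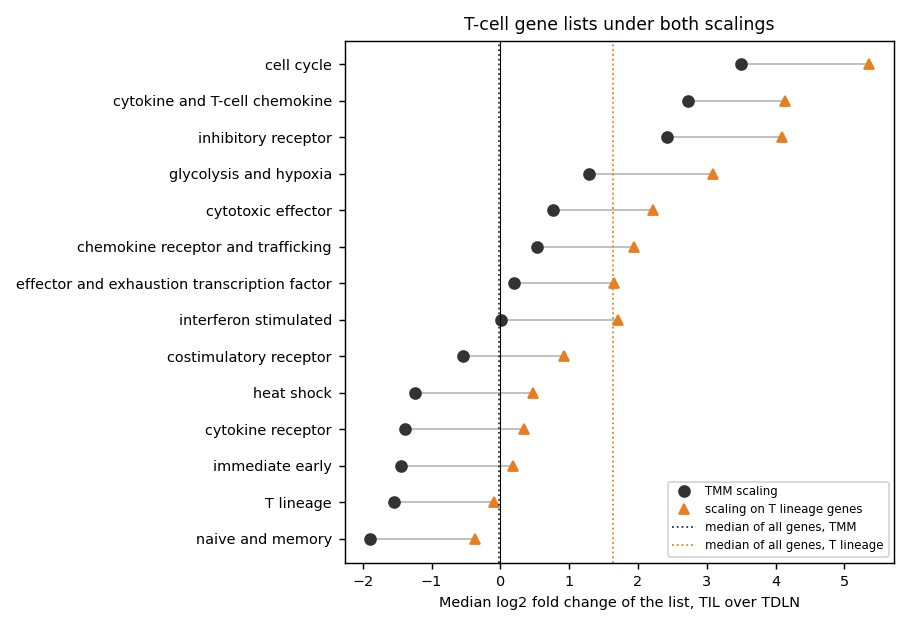
Median log2 fold change, TIL over TDLN, of 14 gene lists with libraries scaled by TMM (black circles) or on the T lineage genes (orange triangles), dotted lines marking the median of all tested genes at −0.02 and 1.64. Cell cycle, cytokine and inhibitory receptor lists lie above the median of all genes on both scales, and the naive and memory list below it on both.

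Of 17 cytotoxic genes tested, 7 (41.2%) were called higher, beside 22.5% of all genes. Called lower were 2 (11.8%), Gzmm and Ctsw (−1.35 and −1.20, log2 fold changes), beside 15.2% of all genes. Gzmk, a granzyme of effector memory and exhausted cells, was at 75, 107, 289.5 and 83.3 CPM in TILs and 0.318, 2.19, 0.922 and 1.11 CPM in TDLN cells (log2 fold change 6.90, SE 0.67, edgeR adjusted p = 1.75e-05). Gzma was at 14.3, 44.1, 216 and 85.7 CPM in TILs and 2.03, 9.58, 3.07 and 2.74 CPM in TDLN cells (log2 fold change 4.36, SE 0.80, edgeR adjusted p = 0.00112). TIL libraries lay above all TDLN libraries for both granzymes. Klrk1 and Klrc1, which encode the NK receptors NKG2D and NKG2A, rose by 2.98 and 2.93 on the log2 scale, and Fasl, the death ligand, by 1.54. Prf1, the pore-forming perforin, overlapped between tissues at 57.6, 45.6, 122 and 158 CPM in TILs and 145, 157, 143 and 107 CPM in TDLN cells (log2 fold change −0.52, SE 0.37, edgeR adjusted p = 0.284). Nkg7, a granule protein, also overlapped (log2 fold change 0.26, SE 0.42, edgeR adjusted p = 0.648). Scaled on the T lineage genes, 11 of the 17 were called higher and 0 lower, and Gzmm and Ctsw stood at 0.12 and 0.25. That share was near the 8363 of 13894 called higher over all genes on this scale. Among the 11 cytotoxic genes was Nkg7 at 1.74 (edgeR adjusted p = 0.00105). Relative to the T lineage sum of the same library, the cytotoxic sum was 107%, 85.6%, 76.7% and 73.2% in TIL replicates 1 to 4. In TDLN cells it was 25.9% to 29.8%, without overlap. TIL replicate 1, with the highest ratio, had the least T lineage and the most melanocyte RNA. The mean cytotoxic sum was 3564 CPM in WT CD45 TILs and 3038 CPM in WT CD8 TILs (scaled over 48 libraries). The part of RNA of other cells in the ratio was not tested. All 7 genes called higher had their highest value in TIL replicate 3, the library with the most T lineage and the least melanocyte RNA. The 4 NK cell genes tested, of which 3 were called higher, were also highest in that library, and their list summed to 80.9, 44.6, 173 and 111 CPM in TILs and 6.46 to 13.4 CPM in TDLN cells. Against the CD45 reference described below, 9 of the 17 cytotoxic genes lay on the CD8 side, Klrc1 among them, and 3 on the CD45 side, and Klrk1 lay on neither. The part of NK cell RNA in these values was not tested. Leaving out TDLN replicate 2, TDLN replicate 3 or TIL replicate 2 left 0 called lower. The granzymes Gzmd, Gzme, Gzmf and Gzmg did not pass the count filter.

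Of 17 inhibitory receptors 10 (58.8%) were called higher, beside 22.5% of all genes, and 2 (11.8%), Btla and Cd96, lower, beside 15.2%. Havcr2 was at 44.2, 17.3, 32.6 and 32.0 CPM in TILs and 0.0636, 0.267, 0.0769 and 0.408 CPM in TDLN cells, close to the level of 3 counts (log2 fold change 7.17, SE 0.59, edgeR adjusted p = 6.6e-06). Entpd1, the ectonucleotidase CD39, was at 31.5, 57.1, 51.3 and 36.5 CPM in TILs and 1.84, 2.94, 3.77 and 2.51 CPM in TDLN cells (log2 fold change 4.00, SE 0.36, edgeR adjusted p = 1.18e-05). Lag3, which binds MHC class II, was at 6.36, 5.91, 17.7 and 16.8 CPM in TILs and 1.27, 1.87, 2.31 and 1.75 CPM in TDLN cells (log2 fold change 2.70, SE 0.49, edgeR adjusted p = 0.000989). In all 3 genes the tissues did not overlap. Klrg1, a receptor of short-lived effector cells, rose by 5.95 and Cd244a, which encodes 2B4, by 3.57 on the log2 scale. Ctla4 and Tigit overlapped between tissues, Ctla4 at 60.0, 53.0, 122 and 39.8 CPM in TILs and 77.6, 105, 73.9 and 122 CPM in TDLN cells (log2 fold change −0.46, SE 0.35, edgeR adjusted p = 0.318). With T lineage scaling 13 of 17 were called higher, beside 8363 of all 13894 genes, and 0 lower, and Pdcd1 had a log2 fold change of 4.95. The inhibitory sum was 33.0%, 24.5%, 21.8% and 16.2% of the T lineage sum in TIL replicates 1 to 4 and 2.94% to 9.64% in TDLN cells. It too was highest in TIL replicate 1, the library with the least T lineage RNA. The mean inhibitory sum was 1089 CPM in WT CD45 TILs and 822 CPM in WT CD8 TILs (scaled over 48 libraries). Entpd1 and Lilrb4a are also macrophage genes, and Lilrb4a and Cd244a were lower in Yap-cKO CD8 than in Yap-cKO CD45 TILs. Against the CD45 reference described below, 8 of the 17 receptors lay on the CD8 side, 4 on the CD45 side and 5 on neither. The part of macrophage RNA in these values was not tested.

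Transcription factors of effector and exhausted cells moved in both directions. Of 19, 6 (31.6%) were called higher, beside 22.5% of all genes, and 5 (26.3%) lower, beside 15.2%. Tox2, a partner of Tox, was at 2.62, 3.05, 8.78 and 4.72 CPM in TILs and 0.636, 0.267, 0.154 and 0.292 CPM in TDLN cells (log2 fold change 3.79, SE 0.61, edgeR adjusted p = 0.000463). Prdm1, which encodes Blimp-1, rose by 3.27 and Bhlhe40, a regulator of cytokine output, by 2.57 on the log2 scale. Tox itself overlapped at 60.0, 41.3, 154 and 80.5 CPM in TILs and 78.5, 80.8, 66.7 and 75.2 CPM in TDLN cells (log2 fold change 0.16, SE 0.36, edgeR adjusted p = 0.751), and on the T lineage scale it was called higher at 1.57 (edgeR adjusted p = 0.00463). All 3 Nr4a genes, which respond to T cell receptor signals, were called lower, and Irf4, induced by the same signals, fell to 8.97, 8.12, 16.3 and 14.8 CPM from 23.7, 82.8, 66.4 and 70.3 CPM (log2 fold change −2.33, edgeR adjusted p = 0.000827). Scaled on T lineage genes, 13 of 19 were called higher, near the share of all genes on that scale, and 0 lower. Nr4a3 stood at −0.68 and Irf4 at −0.82, both short of the threshold. Leaving out 1 library changed the 6 called higher to between 4 and 7.

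Naive and memory genes fell in TILs, with 20 of 23 (87.0%) called lower, beside 15.2% of all genes, and 0 higher. Ccr7 (ENSMUSG00000037944.8, chromosome 11, 99144196 to 99155077), the receptor that guides T cells into lymph nodes, was at 182, 233, 565 and 426 CPM in TILs and 7585, 4656, 8772 and 2802 CPM in TDLN cells (log2 fold change −4.08, SE 0.53, edgeR adjusted p = 0.000123). Tcf7, which encodes TCF-1, was at 80.5, 212, 354 and 294 CPM in TILs and 1181, 1421, 1344 and 1157 CPM in TDLN cells (log2 fold change −2.44, SE 0.42, edgeR adjusted p = 0.000696). The tissues did not overlap for either gene. Ccr9, a gut homing receptor of naive CD8+ cells, fell by 3.43 and Satb1, a chromatin organizer, by 2.39 on the log2 scale. On the T lineage scale, where the median of all genes was 1.64, 4 genes, Ccr7 at −2.61, Ccr9 at −1.95, and Tcf7 and Satb1 just past the threshold (edgeR adjusted p = 0.03 and 0.0481), were called lower and 1, Id3, higher at 2.13. Relative to the T lineage sum, the naive and memory sum was 63.6% to 137% in TILs and 114% to 176% in TDLN cells, and the ranges overlapped through TIL replicate 2 and TDLN replicate 2. Bcl2, a survival factor, and Slamf6, a receptor of stem-like T cells, were not called under either scaling.

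**Figure D3:**
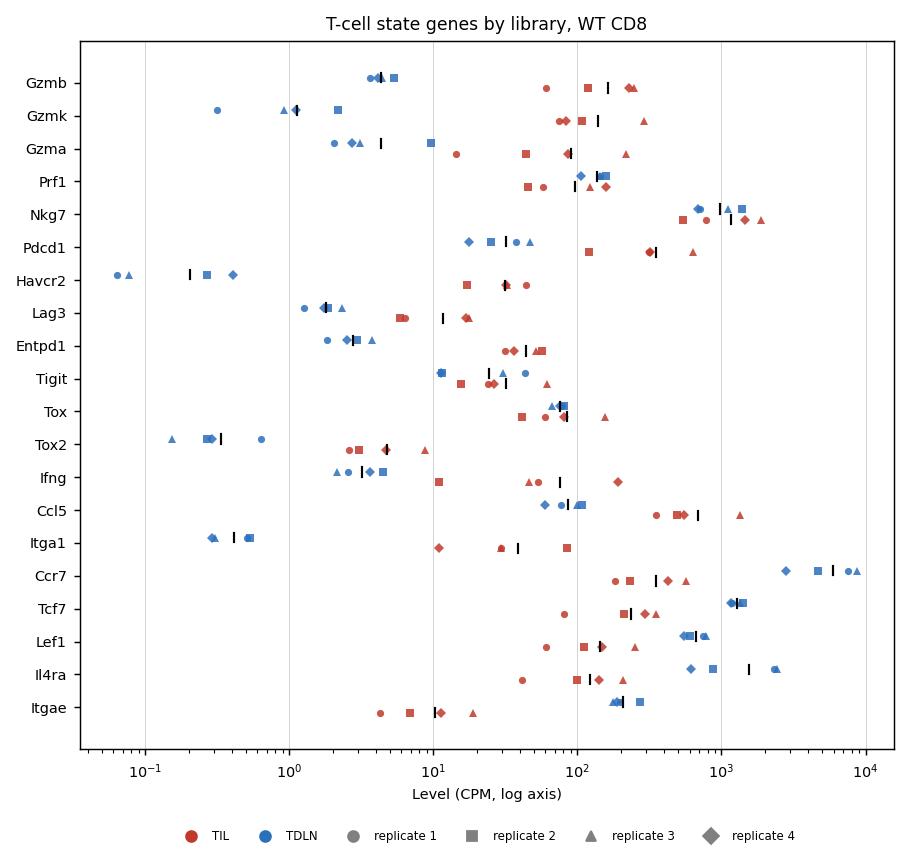
Level of 20 T-cell genes (CPM, log axis) in each WT CD8 library, red for TIL and blue for TDLN, with a marker shape for each replicate and a black bar at the mean. Gzmb, Gzmk, Pdcd1, Havcr2, Ifng and Itga1 lie higher in every TIL library, Ccr7, Tcf7, Lef1, Il4ra and Itgae lower, and Prf1, Tox and Tigit overlap.

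Cytokine and chemokine genes rose in 11 of 19 tested (57.9%), beside 22.5% of all genes, and fell in 1 (5.26%), beside 15.2%. Ifng was at 53.5, 11.0, 46.0 and 190.2 CPM in TILs and 2.54, 4.49, 2.15 and 3.62 CPM in TDLN cells (log2 fold change 4.54, SE 0.74, edgeR adjusted p = 0.000499). Ccl3 and Ccl4, inflammatory chemokines, were at 110.0, 14.8, 89.4 and 436 CPM and 160.5, 61.9, 221 and 549 CPM in TILs, with log2 fold changes of 9.26 and 4.60, and the lowest library of each was TIL replicate 2. Ccl5 was at 352, 491, 1344 and 548 CPM in TILs and 77.2, 107, 99.8 and 59.7 CPM in TDLN cells (log2 fold change 2.99, SE 0.44, edgeR adjusted p = 0.00025). Spp1, the osteopontin gene, which macrophages and tumor cells also express, rose by 9.57 on the log2 scale, and it lay on the CD45 side of the reference described below, as Ccl4 did. Of the 19 genes 8 lay on the CD45 side, 6 on the CD8 side and 5 on neither. Tnf and Il2 were not called (0.08 and 1.70, edgeR adjusted p = 0.901 and 0.0553). Scaled on T lineage genes, 15 were called higher, beside 8363 of all 13894 genes, and 0 lower.

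Cytokine receptors went down, with 11 of 21 (52.4%) called lower, beside 15.2% of all genes. Only 1 (4.76%), Il10ra, was called higher, beside 22.5%. Il4ra was at 41.0, 99.9, 206 and 142 CPM in TILs and 2307, 875, 2442 and 610.0 CPM in TDLN cells (log2 fold change −3.67, SE 0.60, edgeR adjusted p = 0.000508). Il21r was at 108, 70.4, 309 and 171 CPM in TILs and 2215, 688, 2614 and 451 CPM in TDLN cells (log2 fold change −3.18, SE 0.64, edgeR adjusted p = 0.00199). These 2 were the only members still called lower on the T lineage scale, at −2.22 and −1.73. There 6 of the 21 were called higher, under the share of all genes on that scale. Within the TDLN group, replicates 1 and 3 were the highest libraries for Il4ra and Il21r. Il6st, Tgfbr2 and Tgfbr3, receptor chains for IL-6 family cytokines and TGF-beta, fell by 2.58, 2.35 and 3.06 on the log2 scale under TMM and missed the threshold on the T lineage scale. Of 12 costimulatory receptors, 2 (16.7%) were called higher, Tnfrsf4 (OX40) at 2.51 and Tnfrsf9 (4-1BB) at 1.69 (log2 fold changes), beside 22.5% of all genes. Called lower were 4 (33.3%), beside 15.2% of all genes, among them Icos at −1.69 and Tnfrsf1b at −2.46. Without TIL replicate 1 Tnfrsf4 missed the threshold (edgeR adjusted p = 0.0506), and without TIL replicate 4 Tnfrsf9 did (log2 fold change 0.98). Without replicate 4 of both tissues 0 costimulatory genes were called higher. On the T lineage scale 5 were higher, under the share of all genes on that scale, and 1, Tnfrsf1b, lower, and Cd27 and Cd28 turned to 0.23 and 0.25.

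Trafficking genes changed in both directions. Of 21, 9 (42.9%) were called higher, beside 22.5% of all genes, and 8 (38.1%) lower, beside 15.2%. Itga1, the collagen receptor chain CD49a, was at 29.3, 84.3, 29.4 and 10.9 CPM in TILs and 0.508, 0.535, 0.307 and 0.292 CPM in TDLN cells (log2 fold change 6.51, SE 0.68, edgeR adjusted p = 2.7e-05). Pericytes and endothelium also express Itga1, and its highest value was in TIL replicate 2. Cxcr6, which holds T cells in tissue, was at 254, 128, 409 and 222 CPM in TILs and 53.4, 125, 37.0 and 156 CPM in TDLN cells, with overlap (log2 fold change 1.45, SE 0.48, edgeR adjusted p = 0.0281). Cd44, which marks antigen-experienced T cells, rose by 1.90, and S1pr5 and Cx3cr1, receptors of circulating effector cells, by 4.06 and 3.37 on the log2 scale. Itgae, the CD103 chain that binds E-cadherin, went the other way, at 4.26, 6.92, 18.8 and 11.3 CPM in TILs and 197, 273, 176 and 188 CPM in TDLN cells (log2 fold change −4.33, SE 0.45, edgeR adjusted p = 2.63e-05). Its partner Itgb7 fell by 2.68 and Cxcr4 by 2.57 on the log2 scale. Those 3 stayed lower on the T lineage scale, at −2.96, −1.24 and −1.09, where 12 of the list were called higher, near the share of all genes. Cxcr3, the receptor for interferon-induced chemokines, was not called under TMM (0.27, edgeR adjusted p = 0.526) and was higher on the T lineage scale (1.79, edgeR adjusted p = 0.000899).

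Immediate early genes, which dissociation of tissue and receptor signals both induce, were mostly lower in TILs. Of 23, 15 (65.2%) were called lower, beside 15.2% of all genes, and 2 (8.70%) higher, beside 22.5%. Fosl2 was at 38.2, 73.8, 211 and 57.8 CPM in TILs and 1095, 427, 1100 and 321 CPM in TDLN cells (log2 fold change −2.95, SE 0.59, edgeR adjusted p = 0.00203), and Junb fell by 2.51 on the log2 scale. Fosl2 and Nfkbid stayed lower on the T lineage scale at −1.53 and −1.07. There 6 of the 23, Fos at 1.33 among them, were called higher, under the share of all genes on that scale (8363 of 13894). The value of Fos was below the median of all genes there, 1.64. Of 12 heat shock genes 6 (50%) were lower, beside 15.2% of all genes, and 2 (16.7%) higher, beside 22.5%. Dnajb1, a cochaperone, was at 85.01, 102, 226 and 138 CPM in TILs and 1427, 953, 2887 and 437 CPM in TDLN cells (log2 fold change −3.37, SE 0.56, edgeR adjusted p = 0.000611), the TDLN values being highest in replicate 3 and lowest in replicate 4. On the T lineage scale 5 of the 12 heat shock genes were higher, under the share of all genes on that scale, and 1, Dnajb1, lower at −1.79. Of 28 interferon-stimulated genes 8 (28.6%) were higher, beside 22.5% of all genes, such as Rsad2 at 3.17 and Ifit3 at 2.75, and 3 (10.7%) were lower, beside 15.2%, such as Irf9 at −1.99 (log2 fold changes). Both shares were near those over all genes, and the list median was 0.01. On the T lineage scale 15 were higher, near the share of all genes on that scale, and 0 lower. The 8 became 5 when TDLN replicate 1, TDLN replicate 3 or TIL replicate 4 was left out.

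Glycolysis and hypoxia genes were higher in 13 of 21 (61.9%), beside 22.5% of all genes, and lower in 1 (4.76%), beside 15.2%. Tpi1, a glycolytic enzyme, was at 2881, 1368, 1157 and 2567 CPM in TILs and 115, 172, 183 and 73.8 CPM in TDLN cells (log2 fold change 3.88, SE 0.45, edgeR adjusted p = 5.44e-05). Bnip3, a target of hypoxia signaling, was at 594, 201, 214 and 413 CPM in TILs and 9.91, 8.72, 9.38 and 6.53 CPM in TDLN cells (log2 fold change 5.36, SE 0.43, edgeR adjusted p = 5.6e-06). The TIL libraries lay above all TDLN libraries for both. Replicate 1 held the highest TIL value for 11 of the 21 genes and replicate 4 for 9, which were the libraries with the highest melanocyte sums, 16953 and 13262 CPM. None of the 21 genes lay on the CD8 side of the reference described below, and 13 lay on its CD45 side. The part of melanoma RNA in these values was not tested. With T lineage scaling 18 were higher, beside 8363 of all 13894 genes, and 0 lower.

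Of 35 cell cycle genes 29 (82.9%) were called higher, beside 22.5% of all genes, and 0 lower. On the T lineage scale all 35 were higher, beside 8363 of all 13894 genes. The 6 that missed the threshold under TMM were Pcna and 5 Mcm genes of DNA replication, while mitotic genes rose. Cdk1, the mitotic kinase, was at 245, 175, 95.4 and 178 CPM in TILs and 4.45, 8.77, 6.84 and 5.31 CPM in TDLN cells (log2 fold change 4.77, SE 0.38, edgeR adjusted p = 5.47e-06). Ccnb1, its cyclin partner, was at 256, 195, 78.8 and 189 CPM in TILs and 1.72, 8.24, 5.15 and 5.37 CPM in TDLN cells (log2 fold change 5.13, SE 0.52, edgeR adjusted p = 2.39e-05). Mki67, the Ki-67 gene, was at 82.0, 19.9, 23.7 and 13.1 CPM in TILs and 0.191, 0.642, 0.692 and 6.18 CPM in TDLN cells (log2 fold change 4.15, SE 0.97, edgeR adjusted p = 0.00486). TIL libraries lay above all TDLN libraries in all 3 genes. Replicate 1 held the highest TIL value for 23 of the 35 genes and replicate 3 the lowest for 28, the same libraries that were highest and lowest for melanocyte RNA. In Yap-cKO mice, where CD8 TILs held 10.5% of the melanocyte RNA of WT, 26 of the 35 were called higher in TILs, beside 10.9% of all genes tested there. Against the CD45 reference described below, 30 of the 35 lay on the CD8 side, 0 on the CD45 side and 5 on neither. The part of dividing melanoma cells in the WT values, and in the CD8 side of the reference, was not tested.

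Promoters of cell cycle genes are shown because mitotic genes share the CHR element, TTTGAA or its reverse complement TTCAAA, which tethers repressor and activator complexes of the cycle. Of the 28 listed genes with a RefSeq promoter 7 (25%) held it on either strand within 250 bases before the start, against 16% of all promoters. In the windows below, 5′ to 3′ on the strand of the gene on GRCm38.p6, capitals mark the element. The windows of the other genes that held it, Ube2c, Mcm2 and Kif11, are not shown.
Cdk1, chr10:69352966-69352995, minus strand: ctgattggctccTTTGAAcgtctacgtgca
Ccnb2, chr9:70421704-70421733, minus strand: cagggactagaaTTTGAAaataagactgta
Top2a, chr11:99024351-99024380, minus strand: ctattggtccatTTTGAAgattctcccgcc
Mki67, chr7:135716478-135716507, minus strand: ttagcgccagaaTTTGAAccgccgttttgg

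Yap1 (ENSMUSG00000053110.13, chromosome 9, 7931999 to 8004596), the coactivator that the study deletes in T cells, was at 18.9, 28.2, 13.8 and 25.6 CPM in TILs and 2.67, 2.25, 2.31 and 2.39 CPM in TDLN cells (log2 fold change 3.17, SE 0.36, edgeR adjusted p = 4.68e-05), without overlap. Of the 12 genes of the Yap and Tead list 10 were tested, and all 10 were called higher under both scalings. On the T lineage scale 8363 of 13894 genes were called higher. Of the 12 listed, 4 had at most 3 counts in every TDLN library and could pass the count filter only through the TIL libraries. Ccn1 had 0 counts in all TDLN libraries and was at least 839-fold higher, at 191, 273, 46.3 and 125 CPM in TILs. Ccn2, the connective tissue growth factor gene and a standard target of Yap, was at 45.8, 295, 26.7 and 64.7 CPM in TILs, at least 571-fold higher. Wwtr1, which encodes the Yap paralog Taz, was at least 434-fold higher. Replicate 2, the library with the most stromal RNA, held the highest TIL value for 9 of the 10 genes, and replicate 3 the lowest for 9. In Yap-cKO CD8 cells Yap1 was not called between tissues (0.96, edgeR adjusted p = 0.239). The difference of the tissue effect between genotypes was 2.22 for Yap1 (edgeR adjusted p = 0.0983) and did not pass. The parts of T cells, melanoma and stroma in the WT Yap1 values were not tested.

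To place genes by cell type with libraries outside the comparison, CD8 TILs of Yap-cKO mice were set against CD45+ CD4- CD8- TILs of Yap-cKO mice. Of 13818 genes, 2006 (14.5%) were called higher in CD8 TILs, the CD8 side, and 2491 (18%) lower, the CD45 side, 32.5% in all. All 15 T lineage genes fell on the CD8 side and all 17 macrophage genes on the CD45 side. Of 16 melanocyte genes 15 fell on neither side and 1 on the CD8 side, where 1 of 11 pericyte genes also lay. The CD8 side thus held markers of other cells. Both populations carried melanocyte RNA, at a mean sum of 1153 CPM in Yap-cKO CD8 and 370 CPM in Yap-cKO CD45 TILs (scaled over 48 libraries). Of the 3121 genes higher in WT CD8 TILs, 394 lay on the CD8 side, 895 on the CD45 side and 1441 on neither, and 391 were not tested in the reference. These genes summed on the CD8 side to 20464 CPM in the mean TIL library, on the CD45 side to 52591 CPM and on neither to 111635 CPM. In the comparison of Yap-cKO CD8 TILs with Yap-cKO CD8 TDLN cells, 10.9% of the genes tested were called higher. Those genes included 66.5% of the WT genes on the CD8 side, 56.0% on the CD45 side, 28.8% on neither and 0.512% of those not tested. Of the genes not called in WT, the same shares were 7.02% on the CD8 side, 6.81% on the CD45 side and 1.31% on neither. The same 4 Yap-cKO CD8 TIL libraries entered both comparisons. Of the genes higher in WT, 1.27% on the CD8 side, 10.4% on the CD45 side, 16.2% on neither and 92.3% of those not tested in the reference were not tested in the comparison of Yap-cKO tissues. Called lower were 5% of the genes tested.

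Outside the lists, the 10 genes on the CD8 side with the smallest p were Ica1, Adgrg1, Enpp2, Plod2, Spats2, Ryk, Pclaf, Gsta4, Mlf1 and Zdhhc2. Adgrg1, which encodes GPR56, a receptor of cytotoxic lymphocytes, was at 40.9, 102, 84.1 and 55.8 CPM in TILs and 0.699, 0.963, 1.15 and 0.758 CPM in TDLN cells (log2 fold change 6.30, SE 0.41, edgeR adjusted p = 2.6e-06). Zdhhc2, a palmitoyltransferase, was at 45.8, 38.2, 38.3 and 29.7 CPM in TILs and 4.26, 3.00, 3.54 and 3.73 CPM in TDLN cells (log2 fold change 3.39, SE 0.30, edgeR adjusted p = 1.16e-05). Pclaf, a partner of PCNA in DNA replication, rose by 4.04 on the log2 scale. Ica1, Enpp2, Plod2, Spats2, Ryk, Gsta4 and Mlf1 had their lowest TIL value in replicate 3, the library with the least melanocyte RNA, Ica1 for example at 76.3, 70.9, 24.8 and 42.6 CPM in TILs. The part of melanoma RNA in the CD8 side was not tested, and Yap-cKO CD8 TILs held a summed melanocyte level of 51.3 to 2765 CPM against 144 to 552 CPM in Yap-cKO CD45 TILs. On neither side, Gpnmb, a melanosome and macrophage glycoprotein, was at 2532, 1757, 616 and 2135 CPM in TILs and 0.826, 1.498, 1.23 and 1.46 CPM in TDLN cells (log2 fold change 10.44, SE 0.61, edgeR adjusted p = 2.07e-06). On the CD45 side, Cd63, a tetraspanin of lysosomes and melanosomes, was at 1336, 738, 389 and 897 CPM in TILs and 1.84, 0.642, 1.84 and 1.22 CPM in TDLN cells (log2 fold change 9.25, SE 0.58, edgeR adjusted p = 2.6e-06). The mitochondrial genes mt-Co2 and mt-Cytb were called higher at 1.62 and 1.92 on the log2 scale, and both calls were lost without any of TDLN replicates 1 to 3 or TIL replicates 1 and 2.

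Among the lower genes outside the lists, those with the smallest p were Per2, St8sia1, Irs2, Ripor2, Tdrp, Tob1, Rasal1, Dnajb9, Pag1 and H2-Ob. Irs2, an adaptor of insulin and IL-4 receptor signaling, was at 29.5, 40.7, 74.0 and 40.1 CPM in TILs and 786, 494, 1122 and 396 CPM in TDLN cells (log2 fold change −3.92, SE 0.43, edgeR adjusted p = 4.15e-05). Per2, a clock gene, was at 1.72, 1.89, 1.45 and 1.37 CPM in TILs and 19.5, 15.2, 18.7 and 18.1 CPM in TDLN cells (log2 fold change −3.47, SE 0.34, edgeR adjusted p = 1.9e-05). Tob1, an antiproliferative factor of quiescent T cells, was at 28.7, 52.8, 48.3 and 41.0 CPM in TILs and 237, 184, 249.8 and 190.0 CPM in TDLN cells (log2 fold change −2.33, SE 0.27, edgeR adjusted p = 5.41e-05). The tissues did not overlap for any of the 10. On the T lineage scale 8 kept a log2 fold change below −1 with an adjusted p under 0.05, such as Irs2 at −2.35 and Per2 at −1.75, and Tob1 (−0.68) and Dnajb9 (−0.96) did not.

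The TIL library that held the highest value of a gene differed between lists, a pattern described after the values were seen. TIL replicate 3 was highest for 13 of 15 T lineage, 12 of 17 inhibitory receptor, 15 of 19 transcription factor and 18 of 23 naive and memory genes, and for none of the melanocyte, endothelial, fibroblast, pericyte, cell cycle or Yap and Tead genes. It was also highest for 5 of 5 neutrophil, 4 of 4 NK cell, 9 of 17 macrophage and 5 of 7 MHC class II genes. Over the 3121 genes called higher, replicates 1 to 4 were highest for 1343, 1231, 239 and 308 genes. Over the 2114 genes called lower they were highest for 71, 334, 1314 and 395. Over all 13894 genes the counts were 3709, 3642, 3780 and 2763. Among the genes called higher, all 7 cytotoxic genes and 6 of 10 inhibitory receptors were highest in replicate 3.

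**Figure D4:**
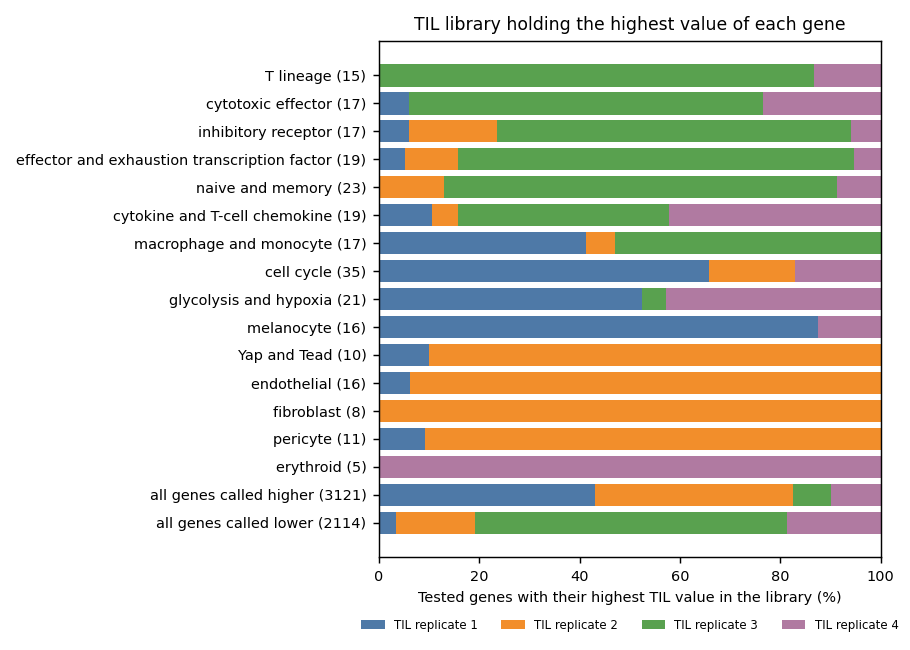
Share of tested genes (percent, number tested in brackets) whose highest TIL value fell in each of the 4 WT CD8 TIL libraries, for 15 lists and for all genes called higher or lower. Replicate 3 is highest for 13 of 15 T lineage genes, and also for 9 of 17 macrophage genes, replicate 1 for most melanocyte and cell cycle genes, replicate 2 for stromal and Yap and Tead genes, and replicate 4 for erythroid genes.

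CD4+ T cells of the same tumors and nodes gave a second tissue difference to set beside that of CD8+ cells, and the tissue differences of both cell types were tested against each other. By edgeR the interaction of tissue and cell type was called in 62 of 15063 genes (0.412%), 40 (0.266%) with the greater TIL over TDLN difference in CD8 and 22 (0.146%) in CD4 cells. The difference is signed, so a gene that falls in TILs has the greater difference where it falls less. Havcr2 had the clearest difference (6.14 on the log2 scale, edgeR adjusted p = 0.000246), at 29.4 CPM in CD8 TILs and 0.201 CPM in CD8 TDLN cells against 7.64 and 3.79 CPM in CD4 cells (means of 4, scaled over 48 libraries). Tox2 (4.15, edgeR adjusted p = 0.0175) also had the greater difference in CD8 cells, and CD4 TDLN cells already expressed it at 8.51 CPM. Nkg7 (−3.84) and Cxcr3 (−3.24) had the greater difference in CD4 cells. CD8 TDLN cells already held Nkg7 at 939 CPM and Cxcr3 at 107 CPM, against 16.8 and 20.6 CPM in CD4 TDLN cells. Ccr9, Ly6c2 and Plac8, genes of naive or central memory CD8+ cells, had interactions of the same sign (−2.86, −4.78 and −4.52). Ccr9 fell in CD8 TILs, and its interaction stands for a more negative change in CD8 than in CD4 cells. Markers of other cells were called as well, the endothelial gene Eng (−4.32) and the pericyte gene Kcnj8 (−3.85) with the greater difference in CD4 cells and the neutrophil gene Mmp9 (5.83) in CD8 cells. No melanocyte, macrophage, cell cycle or T lineage gene was called, and WT CD4 TILs held 109.7% of the melanocyte RNA of WT CD8 TILs. With 1 library left out the counts fell to as few as 18 and 12, and scaled on T lineage genes they were 6 and 8. Within each tissue, CD8 and CD4 libraries with the same replicate number deviated together, and a fit with these pairs as a block, added after seeing the data, called 140 genes with the greater difference in CD8 and 124 in CD4 cells by edgeR, with 39 of the 40 and 22 of the 22 among them. The 9 listed genes called without the block, Havcr2, Tox2, Cd200, Nkg7, Cxcr3, Ccr9, Eng, Kcnj8 and Mmp9, kept their direction and their call. With the block 6 of 35 cell cycle genes, such as Ccna2 at 1.84, were also called with the greater difference in CD8 cells, beside 140 of all 15063 genes. Prdm1 at 2.47 was called in the same direction. Tbx21 at −3.12, Ccl5 at −2.56 and the melanocyte gene Trpm1 at −1.63 were called with the greater difference in CD4 cells.

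Yap-cKO CD8 cells were used as a second set of libraries with less melanocyte, stromal and erythroid RNA. In Yap-cKO CD8 TILs the melanocyte list summed to 1153 ± 1176 CPM, against 10988 ± 4746 CPM in WT CD8 TILs, and T lineage genes to 6954 ± 444 against 3756 ± 1895 CPM (SD, n = 4). The endothelial, fibroblast and pericyte sums were 7.70%, 3.28% and 7.86% of those in WT, while the macrophage, NK cell and MHC class II sums were 179%, 214% and 168.5%. The Y-linked list summed to 3.88 to 8.49 CPM in Yap-cKO and 3.86 to 113 CPM in WT CD8 TILs. In CD8 TDLN cells it summed to 3.53 to 19.0 CPM in Yap-cKO and 8.80 to 87.8 CPM in WT. Genotype, the amount of Y-linked RNA and content of other RNA cannot be told apart in this reference, nor in the test between genotypes below. Between tissues 1456 genes were called higher and 668 lower in Yap-cKO CD8 cells. Of the 3121 genes higher in WT, 1180 were called higher, 2 lower and 1246 neither in Yap-cKO cells, and 693 were not tested. Of the 2114 lower genes 553 were called lower and 0 higher.

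Gzmb, Pdcd1 and Havcr2 had Yap-cKO log2 fold changes of 5.61, 4.40 and 6.29, beside 5.23, 3.46 and 7.17 in WT. In Yap-cKO cells, of 17 cytotoxic genes 10 rose and 0 fell, of 17 inhibitory receptors 12 and 0, and of 23 naive and memory genes 0 and 15. Over all genes tested there, 10.9% were called higher and 5% lower. Ccr7 fell by 3.03 and Itgae by 2.95 on the log2 scale. T lineage genes were called lower in 1 of 15, Cd6, and Cd8a was not called (−0.36, edgeR adjusted p = 0.282). Glycolysis genes were higher in 4 of 21. All 17 macrophage genes were higher in Yap-cKO TILs too.

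A direct test of the tissue difference between genotypes called 63 of 14937 genes (0.422%), all with the greater difference in WT, and 0 the other way by edgeR. At an unadjusted p under 0.05 edgeR held 2333 genes, and DESeq2 called 674 and 45. With a replicate block edgeR called 0 genes in either direction, and 1930 had an unadjusted p under 0.05. Flt1, a VEGF receptor, differed by 6.49 on the log2 scale, Cd34, a marker of vessels, by 6.74, and Col15a1, a basement membrane collagen, by 8.13 (edgeR adjusted p = 0.0297, 0.0297 and 0.0297). Among the lists the called genes were endothelial (Flt1, Eng and Egfl7), pericyte (Pdgfrb and Abcc9) and Ccn2, and none was a T lineage, cytotoxic, inhibitory receptor or naive gene. The 63 calls depended on single libraries. They were 0 without WT CD8 TDLN replicate 1, 2, 3 or 4, Yap-cKO CD8 TDLN replicate 3, or Yap-cKO CD8 TIL replicate 1, 2 or 4, 24, 19, 3, 20 and 11 without Yap-cKO CD8 TDLN replicate 1, 2 or 4 or WT CD8 TIL replicate 1 or 2, and 313, 182 and 338 without WT CD8 TIL replicate 3 or 4 or Yap-cKO CD8 TIL replicate 3.

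**Figure D5:**
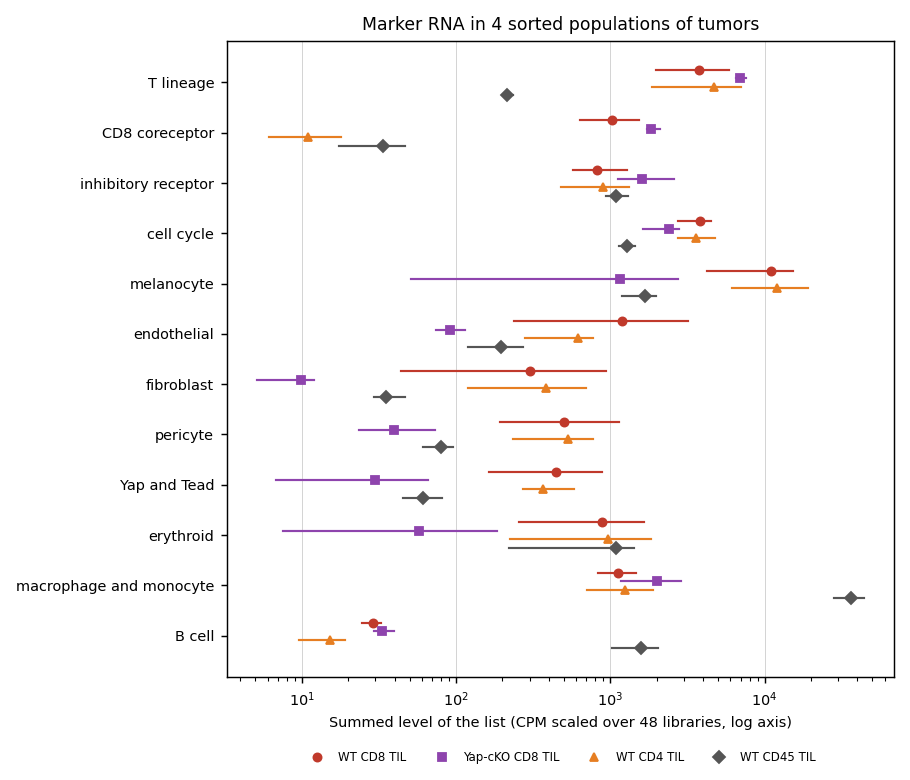
Summed level of 12 lists (CPM scaled over all 48 libraries, log axis) in WT CD8, Yap-cKO CD8, WT CD4 and WT CD45 TILs, points marking the mean of 4 libraries and lines the lowest to the highest. The ranges of WT CD8 and WT CD4 TILs overlap for endothelial, fibroblast, pericyte and macrophage sums, Yap-cKO CD8 TILs hold less melanocyte and stromal RNA, and the macrophage sum is highest in WT CD45 TILs.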

How the data were processed

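RNA of sorted cells was amplified with SMART-Seq v4 and sequenced in paired ends. Per the authors and their processing notes (FastQC, Trimmomatic, Salmon 0.9.1, mm10), each deposited table holds Salmon expected counts, effective lengths and TPM for 112092 transcripts. TPM values, scaled by the authors' Salmon run to a fixed total per library, were not tested. For each GENCODE M21 gene the expected counts of its transcripts were added (111787 transcripts, 34932 genes, 0.0765% to 0.161% of counts unmatched in the 8 libraries) and rounded. Counting was not stated to use strand, so overlapping and antisense genes, and near-identical copies, are uncertain.

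Genes that reached 10 counts in 4 or more libraries of a comparison were tested with edgeR 4.0.16 (quasi-likelihood test, TMM scaling, R 4.3.3) and Benjamini-Hochberg adjustment, and were called where the adjusted p was below 0.05 and the log2 fold change exceeded 1 in size. The WT CD8 fit held 8 libraries, each interaction fit 16, and the Yap-cKO fits 8 each. SE are on the log2 scale. Gene levels were not compared per length. The floor of 3 counts covers counting error only. PCR copies without molecular identifiers are not independent molecules. Alternatives were DESeq2 1.42.0, no count filter, the adjusted p alone, transcript length offsets, a replicate block, scaling on T lineage genes or on total counts, and leaving out each library. Leaving out pairs of libraries, and a block of the pairs below, were chosen after seeing the data. Replicate numbers were taken to pair libraries where, in all 4 pairs, deviations from the group means correlated above 0.1. They did so between WT CD8 and WT CD4 libraries of a tissue (0.112 to 0.709 in TILs, 0.384 to 0.786 in TDLN cells), where both populations were sorted from each tumor, but not between tissues in WT CD8 (−0.351 to 0.107), WT CD4 (0.0187 to 0.452) or Yap-cKO CD8 cells (−0.401 to 0.136), nor between Yap-cKO CD8 and CD45 TILs (−0.00811 to 0.421). Libraries that missed this rule can still come from the same mouse.

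The comparison and the 30 lists (441 genes) were chosen with earlier results of these data known. The rule for named genes took Cd8a, Gzmb, Pdcd1 and Yap1, up to 6 called members per list with the largest absolute changes, up to 3 uncalled members with the highest mean CPM, the leading genes outside the lists on each side of the Yap-cKO reference, and the 10 genes with the smallest p in each interaction, passing over predicted genes and pseudogenes outside the lists. Other genes (Abcc9, Btla, Ccl5, Ccna2, Ccnb2, Cd200, Cd44, Cd96, Ctsw, Cxcr6, Dcn, Dct, Egfl7, Eng, Gzmm, Il10ra, Il2, Kcnj8, Krt5, Lag3, Lef1, Lum, Mc1r, Mitf, Mki67, Pdgfrb, Pmel, Prf1, Slc24a5, Tbx21, Tigit, Tnf, Top2a, Trpm1, Tyr) were chosen after their values were seen.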

Additional observations from a re-analysis of the deposited data

Results flagged for a closer look

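Among 152 sets of 4 libraries checked, 11 held a library whose gap to its nearest neighbor, divided by the range of the group, passed Dixon's critical value at 95%, and chance alone gives about 1 in 20. In WT CD8 TILs, replicate 2 stood highest for the fibroblast sum (gap over range 0.898), Col1a1 (0.945), Kdr (0.878) and Ccn2 (0.858). Replicate 1 stood highest for the heat shock sum (0.866) and Mki67 (0.846), and replicate 3 for Gzmk (0.851). In WT CD8 TDLN cells, replicate 3 stood highest for the neutrophil sum (0.832) and was the only library with any count of Ccn2 (0.0769 CPM, gap over range 1), a level under that of 3 counts. TDLN replicate 2 stood highest for Gzma (0.862) and replicate 4 for Mki67 (0.916).

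The tissue difference of 9 listed genes differed between WT CD8 and WT CD4 cells by the interaction test of edgeR. It was greater in CD8 cells for Havcr2 (6.14 on the log2 scale), Mmp9 (5.83), Tox2 (4.15) and Cd200 (2.53). It was greater in CD4 cells for Eng (−4.32), Kcnj8 (−3.85), Nkg7 (−3.84), Cxcr3 (−3.24) and Ccr9 (−2.86). The difference is signed, and Ccr9 fell in CD8 TILs, so its value stands for a more negative change in CD8 cells. Between genotypes, 6 listed genes had the greater difference in WT CD8 cells, Ccn2 (10.84), Pdgfrb (6.92), Flt1 (6.49), Abcc9 (5.03), Egfl7 (4.5) and Eng (3.90).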

How the results depend on the processing

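In the WT CD8 comparison the counts of genes higher and lower were 3218 and 2173 by DESeq2, 3745 and 2388 with no count filter, 3400 and 2616 with the adjusted p alone, and 3050 and 1961 with transcript length offsets. Scaling on T lineage genes gave 8363 and 107, and scaling on total counts 3624 and 1244. With 1 library left out they ranged from 2804 to 3486 and from 1625 to 2301. Of the log2 fold changes of named genes, those of 17 changed sign on the T lineage scale: Cd8a 0.22, Cd8b1 0.24, Cd27 0.23, Cd28 0.25, Tnfrsf18 1.01, Cd48 1.25, Ifnar2 1.17, Fos 1.33, Zfp36 1.15, Pcna 1.77, Bst2 1.67, Slc2a1 1.43, Hspa5 1.64, H2-DMa 0.21, Cd74 1.37, Cxxc5 0.23 and Plac8 1.27. By its construction that scale sets the sum of the T lineage genes equal between libraries.

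The CD4 interaction gave 104 and 62 genes by DESeq2, 62 and 34 with no count filter, and 6 and 8 on the T lineage scale, and with 1 library left out 18 to 42 and 12 to 27. The genotype interaction gave 674 and 45 by DESeq2, 431 and 26 with no count filter, 1 lower with length offsets, 3246 and 5 on the T lineage scale, 22 higher on total counts, and with 1 library left out 0 to 338 and 0 to 105. The Yap-cKO comparison had 1037 genes lower with the adjusted p alone, 206 on the T lineage scale and 398 on total counts, and 352 to 966 with 1 library left out. It fell to 352 without Yap-cKO CD8 TIL replicate 2. Apart from the leave-one-out fits and the T lineage scale, the cause of these changes was not tested.

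By the rule of correlation above 0.1 in all 4 pairs, the replicate numbers did not pair TIL with TDLN libraries. Of the 4 WT CD8 TIL libraries 1 matched its own number best. The rule cannot exclude that libraries with the same number came from the same mouse, and replicate 4 of both WT CD8 tissues nearly lacked Ddx3y RNA. By the same rule the numbers paired WT CD8 with WT CD4 libraries of a tissue. A replicate block of those pairs gave 140 and 124 genes in the CD4 interaction, with 39 of the 40 and 22 of the 22. A replicate block across tissues gave 3049 higher and 1971 lower in the WT CD8 comparison, 71 and 39 in the CD4 interaction, 0 higher in the genotype interaction, 1193 and 505 in Yap-cKO CD8 cells, and 1970 and 2583 in the Yap-cKO CD8 against CD45 comparison. Depth limited genes near 3 counts, of which 498 called higher had at most 3 counts in every TDLN library.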
